A study of Mus musculus with 15 samples.

Results

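The receptor tyrosine phosphatase Ptprk and 9 related genes were examined in mouse small-intestinal organoids, which are 3-dimensional epithelial cultures grown from crypts. The 10 genes were taken by symbol from a fixed list, out of 43629 genes in the deposited count table. The list was chosen with earlier results of these data known. Its genes are Ptprk, its close relatives Ptprm, Ptpru and Ptprt, and the receptor-type phosphatases Ptprf, Ptprs, Ptprj, Ptprg, Ptpra and Ptprh. All 10 were matched by Ensembl identifier.

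RNA sequencing of polyadenylated RNA gave 13 libraries that could be placed in a group, all of strain C57B6/129. The WT group (n = 5) holds 4 libraries of Apc flox/flox organoids that kept Apc (named here 1, 2, 5 and 6) and 1 dox-naive library (NAIVE), all grown in ENR medium with EGF, Noggin and RSPO1. The Apc group (n = 4, libraries 1, 2, 5 and 6) carried Apc delta/delta and grew in EN medium, which lacks RSPO1. The P-Rspo3 group (n = 4, libraries 15d, 4d, M and F) carried the Ptprk-Rspo3 inversion and also grew in EN medium. Genotype and medium therefore cannot be told apart in either comparison with WT, whereas Apc and P-Rspo3 shared a medium. The P-Rspo3 cultures were polyclonal, and they and the NAIVE library came from mice with Cas9 under a doxycycline-inducible transgene, unlike the other WT libraries. The labels do not say which libraries came from separate animals, so p-values measure the spread between these libraries. Total counts ran from 28902729 to 35528495 per library.

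Receptor tyrosine phosphatases span the plasma membrane and remove phosphate from tyrosines of proteins at the inner face of the cell surface. Ptprk, Ptprm, Ptpru and Ptprt form the group with an extracellular MAM domain, whose members can bind the same molecule on a neighbouring cell and act on cadherin-catenin junctions. In colorectal cancer PTPRK is known as the gene that gives its promoter and first exon to RSPO3, a secreted ligand that sustains Wnt signalling at the stem cell. The questions here were where Ptprk stands in its family as a source of transcription, and whether its relatives differ where Ptprk is rearranged.

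Ptprk (ENSMUSG00000019889) lies on the forward strand of GRCm38 at chr10:28074820-28597397, and Rspo3 (ENSMUSG00000019880) lies downstream of it on the reverse strand at chr10:29452416-29535867. In the reference transcripts (GENCODE M21) exon 1 of Ptprk is 358 bases long, of which 97 are coding, and exon 1 of Rspo3 also holds 97 coding bases. Both exons thus end 1 base into a codon, and the joined reading frame ran 831 bases before its stop codon, the same length as the coding sequence of Rspo3. Because the inversion breaks inside intron 1 of each gene, the fusion transcript keeps exon 1 of Ptprk and replaces exons 2 to 32. The reference bases that meet at the junction are shown because they mark which part of each gene the fusion RNA shares with its parents, with Ptprk exon 1 (chr10:28075118-28075177) in lower case and Rspo3 exon 2 (chr10:29506520-29506579, reverse strand) in capitals.
Ptprk-Rspo3 junction: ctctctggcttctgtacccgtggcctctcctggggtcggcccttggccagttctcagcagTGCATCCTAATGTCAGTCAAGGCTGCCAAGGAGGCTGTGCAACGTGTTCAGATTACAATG

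The guide pair that the study marked for its P-Rspo3 mice cuts in these introns, and its cloning oligos are shown with the overhang in lower case and the 20-base guide in capitals. Their exact positions were not located here.
Ptprk-proxB: caccGGGGTAAGCCTTCCGGGAAT
Rspo3-proxA: caccGATCATCCCAAATTCCCGCC

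The promoter that the inversion places in front of Rspo3 is the Ptprk promoter, printed here for the 250 bases before the RefSeq start (GRCm38.p6, chr10:28074570-28074819, forward strand). A GC box, GGGCGG read on the opposite strand, is in capitals.
Ptprk promoter: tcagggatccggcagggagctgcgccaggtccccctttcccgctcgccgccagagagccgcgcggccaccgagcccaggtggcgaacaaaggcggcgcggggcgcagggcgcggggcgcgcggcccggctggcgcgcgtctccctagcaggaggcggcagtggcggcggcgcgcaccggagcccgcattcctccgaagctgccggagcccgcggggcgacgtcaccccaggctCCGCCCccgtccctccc

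Over the 300-base window from 250 bases before to 50 after the start, the Ptprk promoter was 75.0% G or C with 38 CpG dinucleotides, a higher G and C share than 96.1% of 32851 promoters in the RefSeq table. All 10 genes had at least 1 promoter there, 13 in all. On either strand, 7 of the 13 held the GC box GGGCGG, against 35.7% of all promoters, and 0 held TATAAA, against 13.6%. The TCF/LEF words CTTTGAA and CTTTGAT were in 0 of the 13 and in 8.65% of all promoters, and CCAAT in 1 of the 13 and in 37.4%. The Ptprh promoter differed in composition from that of Ptprk, with 45.0% G or C and 4 CpG dinucleotides. So did a promoter of Ptprj (45.0% and 6) and a promoter of Ptprg (53.7% and 7). The other promoters of Ptprj and Ptprg were at 79.3% and 69.0%.

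In WT organoids Ptprk was among the more abundant receptor-type phosphatases, below Ptprf and level with Ptprg. Levels of different genes are compared as FPKM, fragments scaled by transcript length and library size. Ptprk stood at 14.4, 13.1, 13.6, 18.6 and 13.5 FPKM in WT libraries 1, 2, 5, 6 and NAIVE, with 2958 to 4996 counts behind each value. Library 6 was the highest and the other 4 lay between 13.1 and 14.4. Among 21 receptor-type phosphatases Ptprk ranked from 2 to 4 in the 5 WT libraries, with a median of 2. Ptprf ranked first in each of the 13 libraries. Against all protein-coding genes at or above 0.1 FPKM, Ptprk was higher than 57.8% to 65.7% of them in WT. For comparison, Eif3e, the gene that gives its promoter to RSPO2 in the other recurrent R-spondin fusion, stood at 133 to 160 FPKM in WT and was higher than 95.4% to 96.5%.

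The order of the 10 genes by mean FPKM in WT was Ptprf (38.7 ± 5.34, SD, n = 5), Ptprg (14.8 ± 1.89), Ptprk (14.6 ± 2.27), Ptprh (13.9 ± 4.39), Ptpra (11.3 ± 0.808), Ptprj (6.22 ± 0.948), Ptprs (4.37 ± 0.947), Ptpru (0.468 ± 0.142), Ptprm (0.246 ± 0.126) and Ptprt (0.0204 ± 0.0124). Ptprf was separated from the next gene, with its lowest library at 30.7 FPKM and no other member above 20.0. The ranges of Ptprg, Ptprk and Ptprh overlapped, and so did those of Ptprh and Ptpra, of Ptprj and Ptprs, of Ptpru and Ptprm, and of Ptprm and Ptprt. Within the MAM-domain group, Ptprk made up 93.3% to 96.5% of the summed FPKM in WT, so its 3 closest relatives were nearly silent there. Ptprt had 4 to 17 counts per WT library.

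**Figure D1:**
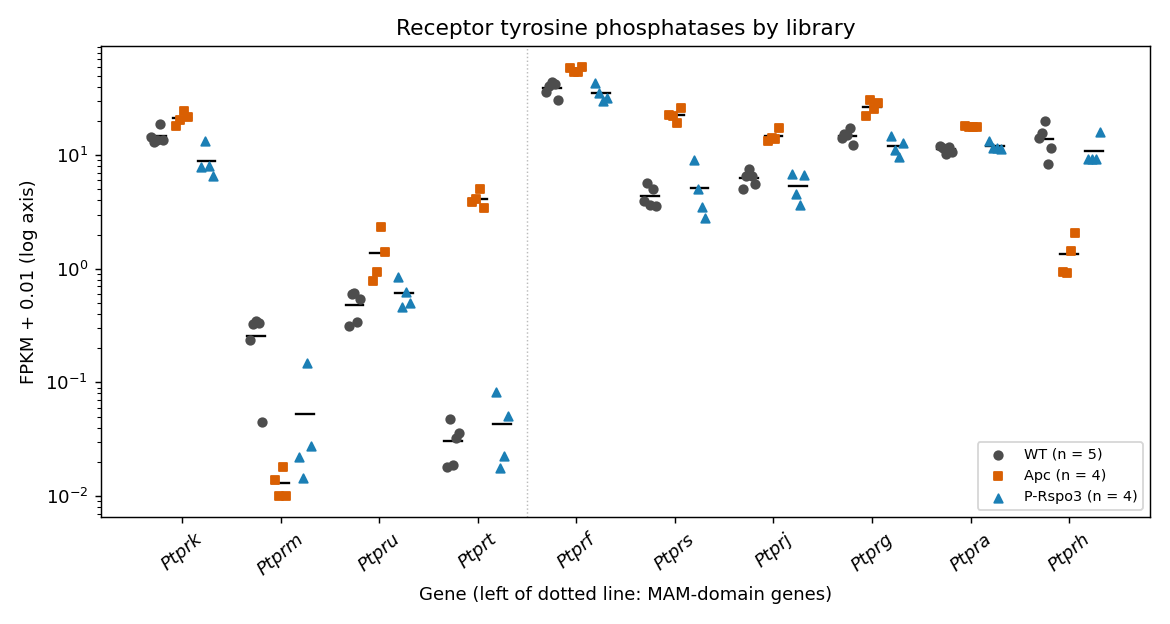
FPKM plus 0.01 on a log axis for the 10 genes in each library, with WT as circles (n = 5), Apc as squares (n = 4), P-Rspo3 as triangles (n = 4) and a bar at each group's mean. Ptprf is the highest gene in all groups, Ptprt is above 3 FPKM in Apc libraries and at or under 0.0726 FPKM elsewhere, and Ptprh is lower in Apc.

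In P-Rspo3 organoids Rspo3 was the only gene called against all WT libraries in the edgeR fit, and no listed phosphatase passed that test. A gene is said to have passed at an adjusted p under 0.05 (edgeR quasi-likelihood test, Benjamini-Hochberg adjustment over all genes tested) and to be called where its absolute log2 fold change (log2FC) was also above 1. Of 15992 genes tested, 1 was called higher (0.00625%) and 0 lower (0%), 2159 had an unadjusted p under 0.05, and DESeq2 called 53 higher and 173 lower. The calls depended on the NAIVE library, without which edgeR called 166 higher and 100 lower, and 1 fit over all 3 groups called 11 and 63. Of the 10 members, 9 were tested, 0 were called, 3 had an unadjusted p under 0.05 (Ptprk, Ptprm and Ptprg), and Ptprt was under the expression filter. The median log2FC of the 9 was -0.23, beside 0.0041 over all genes.

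Rspo3 stood at 11.5, 6.26, 11.5 and 10.1 FPKM in P-Rspo3 libraries 15d, 4d, M and F, and at 0 to 1 count in the WT libraries. With 3534 counts in all against 1, the ratio per normalized library size was 4376 (95% exact interval 785 to 172884, for counting error only). On the FPKM scale Rspo3 thus reached 42.8% to 78.9% of the mean WT level of Ptprk, per length of transcript. The fusion RNA lacks exon 1 of Rspo3, 636 of the 3085 bases of the reference transcript, so this share can be too low. The share was not computed on other scales. It depends on the length taken for Ptprk, which has 13328 annotated exon bases and a reference transcript of 6177. It therefore does not show that Rspo3 stayed below the WT level of Ptprk. Library 4d was the lowest.

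Ptprk itself stood at 7.90, 13.3, 7.94 and 6.57 FPKM in P-Rspo3 libraries 15d, 4d, M and F, against 13.1 to 18.6 in WT. Libraries 15d, M and F were below every WT library, and 4d lay inside the WT range. The log2FC was -0.72 ± 0.19 (SE, 95% interval -1.13 to -0.30), with an unadjusted p of 0.0032 and an adjusted p of 0.153 in the edgeR fit. DESeq2 on the same counts gave a log2FC of -0.72 with an adjusted p of 0.0113. Against the NAIVE library alone, which shares the Cas9 background, the log2FC was -0.64. That value rests on 1 WT library and has no measure of spread within WT. Against all WT but without library 4d, the log2FC was -0.98 with an edgeR adjusted p of 0.0535, the largest shift when 1 library was left out. Gene-level counts include exon 1, which the fusion RNA shares, and do not show how many reads came from intact Ptprk.

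The library with the most Ptprk had the least Rspo3. The ratio of Rspo3 to Ptprk FPKM was 0.470 in library 4d and 1.46, 1.45 and 1.54 in libraries 15d, M and F. The 2 genes together came to 19.4, 19.6, 19.5 and 16.7 FPKM in libraries 15d, 4d, M and F, so the sum varied less than either gene. In WT the sum was Ptprk alone and ran from 13.1 to 18.6. The means were 18.8 ± 1.39 (SD, n = 4) in P-Rspo3 and 14.6 ± 2.27 (n = 5) in WT, a ratio of 1.28 (exact permutation test, two-sided here and below, p = 0.0317, or 0.0397 after adjustment over 5 sums, where 0.0159 is the smallest possible). WT library 6 overlapped the P-Rspo3 range. On FPKM the difference held its direction without any 1 library, with exact permutation p from 0.0286 to 0.0714 and under 0.05 in 2 of 9 such tests. On normalized counts per kilobase of exon, added after the data were seen, the sums were 14.1 to 15.9 in P-Rspo3 and 8.06 to 11.1 in WT. The ratio of means was then 1.67 without overlap (exact permutation test, p = 0.0159), so the size of the difference depends on the scale. That scale divides by all annotated exon bases, 13328 for Ptprk and 3090 for Rspo3. The reference transcripts are 6177 and 3085 bases, so it gives Ptprk less weight than transcript length would. The sum of counts by transcript length was not computed, and the lack of overlap holds for the exon lengths only.

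**Figure D2:**
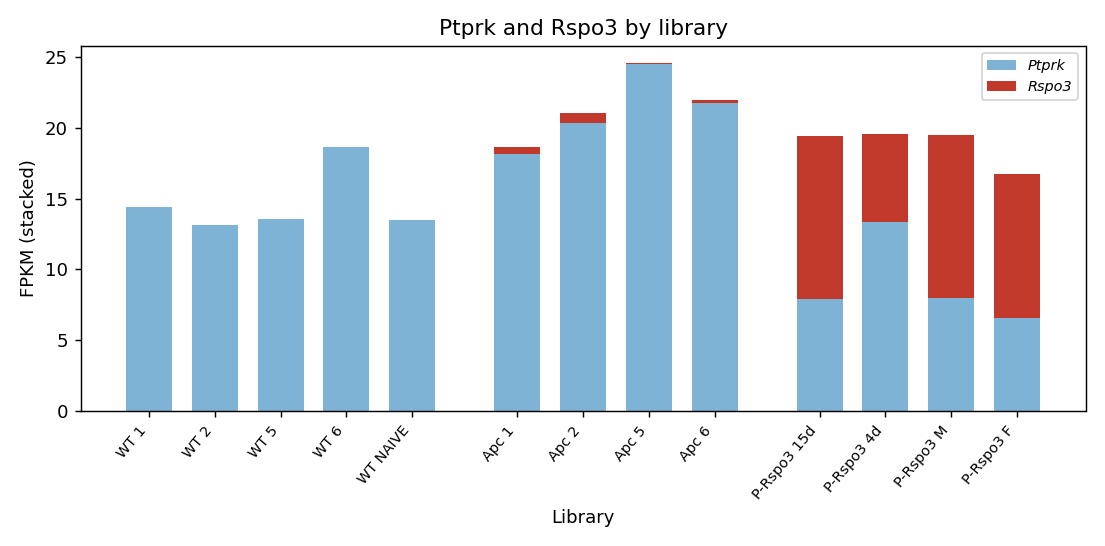
Stacked FPKM of Ptprk (blue) and Rspo3 (red) in each of the 13 libraries, on a linear axis from 0. In the 4 P-Rspo3 libraries Rspo3 adds 6.26 to 11.5 FPKM on top of a Ptprk level of 6.57 to 13.3.

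The relatives of Ptprk did not pass the test in P-Rspo3 organoids. Ptpru stood at 0.827, 0.449, 0.612 and 0.494 FPKM in libraries 15d, 4d, M and F, against 0.302 to 0.595 in WT, with a log2FC of 0.12 (95% interval -0.31 to 0.55, edgeR adjusted p = 0.842). Ptprt had 37, 3, 6 and 20 counts in these libraries and 4 to 17 in WT, which is 0.0726 FPKM at most. Both genes stayed under 1 FPKM, and the interval of Ptpru does not reach a log2FC of 1.

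For Ptprm the NAIVE library lay with the P-Rspo3 libraries and apart from the other WT libraries. It had 56, 74, 77 and 87 counts in WT libraries 1, 2, 5 and 6, but 8 in NAIVE, and 4, 1, 33 and 4 in P-Rspo3 libraries 15d, 4d, M and F. M was the highest of the P-Rspo3 libraries. The log2FC against all WT was -2.53 (95% interval -4.39 to -0.66, edgeR adjusted p = 0.233), DESeq2 called it lower with an adjusted p of 0.0494, and against NAIVE alone it was 0.29.

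The sum of the 4 MAM-domain genes was lower in P-Rspo3. It came to 8.81, 13.8, 8.70 and 7.13 FPKM in libraries 15d, 4d, M and F and to 14.0 to 19.3 in WT, with no overlap. The ratio of means was 0.625 (exact permutation test, p = 0.0159, adjusted p = 0.0265, the smallest p that 5 against 4 libraries allow). After FPKM were rescaled to the same total in each library the direction held (exact permutation test, p = 0.0635). Ptprk made up 89.6% to 96.7% of the sum in P-Rspo3, and its 3 relatives together the small remainder. The sum therefore mostly repeats the values of Ptprk and cannot show whether its relatives offset a change. Its p-value is adjusted over 5 sums only, whereas Ptprk over all genes had an edgeR adjusted p of 0.153.

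**Figure D3:**
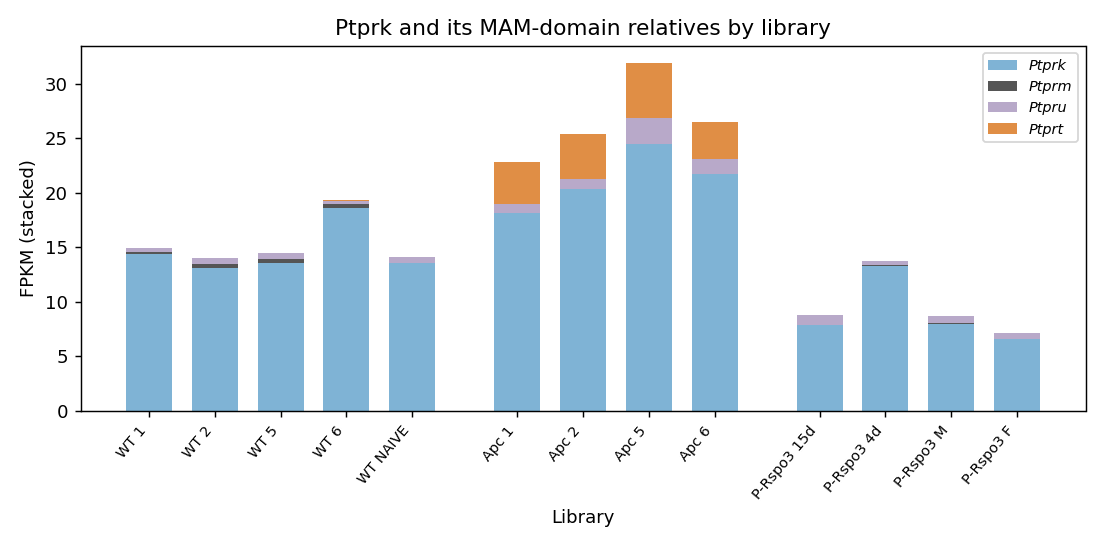
Stacked FPKM of Ptprk, Ptprm, Ptpru and Ptprt in each library, on a linear axis from 0. Ptprk forms over 89% of every WT and P-Rspo3 bar, and Ptprt is a visible layer in the 4 Apc libraries.

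None of the 6 phosphatases outside the MAM-domain group passed the edgeR test in P-Rspo3 (smallest adjusted p = 0.357), and their intervals allow changes of different size. The LAR-type receptor Ptprf, which binds proteoglycans, stood at 43.5, 35.1, 29.8 and 31.6 FPKM against 30.7 to 44.1 in WT (log2FC -0.18, 95% interval -0.47 to 0.11). Ptpra, an activator of Src kinases, gave the narrowest interval (log2FC 0.09, -0.05 to 0.23), with 11.3 to 13.4 FPKM against 10.2 to 12.1. Ptprg, which has a carbonic anhydrase-like domain, was at 9.59 to 14.7 FPKM against 12.1 to 17.3 (log2FC -0.23, -0.45 to -0.01, edgeR adjusted p = 0.357). Ptprj, also known as CD148, was at 3.62 to 6.76 FPKM against 5.03 to 7.49 (log2FC -0.28, -0.69 to 0.13). Ptprs, also LAR-type, was at 9.02, 5.06, 3.48 and 2.76 FPKM in libraries 15d, 4d, M and F against 3.55 to 5.68 in WT. Its log2FC of 0.18 (-0.45 to 0.82) turned to -0.21 without library 15d. Ptprh, a receptor of the microvilli, was at 9.18, 9.28, 9.28 and 16.0 FPKM in libraries 15d, 4d, M and F against 8.34 to 20.0 in WT. Its log2FC of -0.35 (-0.96 to 0.27) was the largest shift of the 6. The sum of all 10 genes was 90.0 ± 12.1 FPKM (SD, n = 4) in P-Rspo3 and 105 ± 10.5 (n = 5) in WT (exact permutation test, p = 0.0952).

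Of the other 11 receptor-type phosphatases, 6 were tested in P-Rspo3 against WT and 0 passed in the edgeR fit. The unadjusted p was under 0.05 for 3 of them, which are named here after their values were seen. Ptprd, the third LAR-type receptor, stood at 16.6, 15.4, 7.62 and 21.4 FPKM in libraries 15d, 4d, M and F against 5.64 to 13.4 in WT, so that M lay inside the WT range and the others above it. Its log2FC was 0.72 (95% interval 0.10 to 1.34, edgeR adjusted p = 0.294). Ptpro stood at 0.506 to 0.994 FPKM against 0.873 to 1.55 (log2FC -0.88, -1.37 to -0.38, edgeR adjusted p = 0.146), and passed by DESeq2 (adjusted p = 0.00891). Ptprn was at 0.131 to 0.394 FPKM against 0.251 to 0.973 (log2FC -0.96, -1.73 to -0.18, edgeR adjusted p = 0.268). Of 10 junction proteins and other known partners, 10 were tested and 0 passed, and of 17 non-receptor phosphatases 13 were tested and 0 passed. The unadjusted p was under 0.05 for 0 of these partners and 0 of these phosphatases.

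In Apc organoids the family was reordered, with Ptprt and Ptprs higher and Ptprh and Ptprm lower than in WT. Of the 10 members, all tested, 2 were called higher, where 12.2% of 16749 genes were, and 2 were called lower, where 14.1% were. By adjusted p alone 6 rose (30.0% of all genes) and 2 fell (29.0%), while Ptprk and Ptprf did not pass. The median log2FC of the 10 was 0.46, beside 0.00058 over all genes. FPKM tended to sit higher in Apc libraries than normalized counts do, so fold changes below come from the counts. Over all genes tested, the median log2FC was 0.17 on the log2(FPKM + 1) scale and 0.28 on the log2(FPKM + 0.1) scale. On the latter scale 2586 genes were called higher and 1731 lower, against 2048 and 2364 from the counts.

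Ptprt, a MAM-domain receptor otherwise known mainly from the brain, went from near silence to a clear level. It stood at 3.88, 4.10, 5.05 and 3.38 FPKM in Apc libraries 1, 2, 5 and 6, with 1855 to 2626 counts, against 0.00801 to 0.0376 FPKM in WT. The groups were far apart, and the log2FC was 7.34 ± 0.29 (SE, edgeR adjusted p = 1.96e-08). It then made up 12.7% to 17.0% of the summed FPKM of the 4 MAM-domain genes. Against P-Rspo3, in the same medium, the log2FC was 6.66 ± 0.48 (adjusted p = 4.06e-06).

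Ptprm moved the other way. It had 1, 0, 2 and 0 counts in Apc libraries 1, 2, 5 and 6, against 56, 74, 77 and 87 in the WT libraries of the same numbers and 8 in NAIVE. All Apc libraries were under every WT library, and the ratio of WT to Apc per normalized library size, from 302 counts against 3, was 105 (95% exact interval 35.7 to 514, for counting error only; edgeR adjusted p = 8.35e-05). Ptprm was not tested against P-Rspo3, where it had 1 to 33 counts.

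Ptpru, whose group also includes the first 3 genes, stood at 0.764, 0.926, 2.32 and 1.40 FPKM in Apc libraries 1, 2, 5 and 6, all above the WT maximum of 0.595. Library 5 was the highest. It rose with a log2FC of 0.94 ± 0.31 (SE, edgeR adjusted p = 0.0215), but without Apc library 5 the log2FC was 0.54 with an adjusted p of 0.0780. With the shared library number as a block it was 0.83 with an adjusted p of 0.0753, so the call does not hold in that fit either.

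Ptprk stood at 18.2, 20.4, 24.5 and 21.7 FPKM in Apc libraries 1, 2, 5 and 6, against 13.1 to 18.6 in WT. On this scale only Apc library 1 lay inside the WT range. As counts scaled to normalized library size (CPM), libraries 1, 2 and 6 (125, 136 and 146) lay inside the WT range of 107 to 148, and library 5 (163) was above it. The log2FC from counts was 0.25 ± 0.11 (SE, 95% interval 0.01 to 0.48, edgeR adjusted p = 0.0647). On the log2(FPKM + 1) scale it was 0.51 with a limma adjusted p of 0.00348, of which the median shift of all genes on that scale is 0.17. Without WT library 6 the adjusted p from counts was 0.00828, and without Apc library 1 it was 0.0349. Between Apc and P-Rspo3 the groups did not overlap, and Ptprk was 1.98-fold higher in Apc (log2FC 0.98 ± 0.20, adjusted p = 0.00216), just under the fold threshold.

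**Figure D4:**
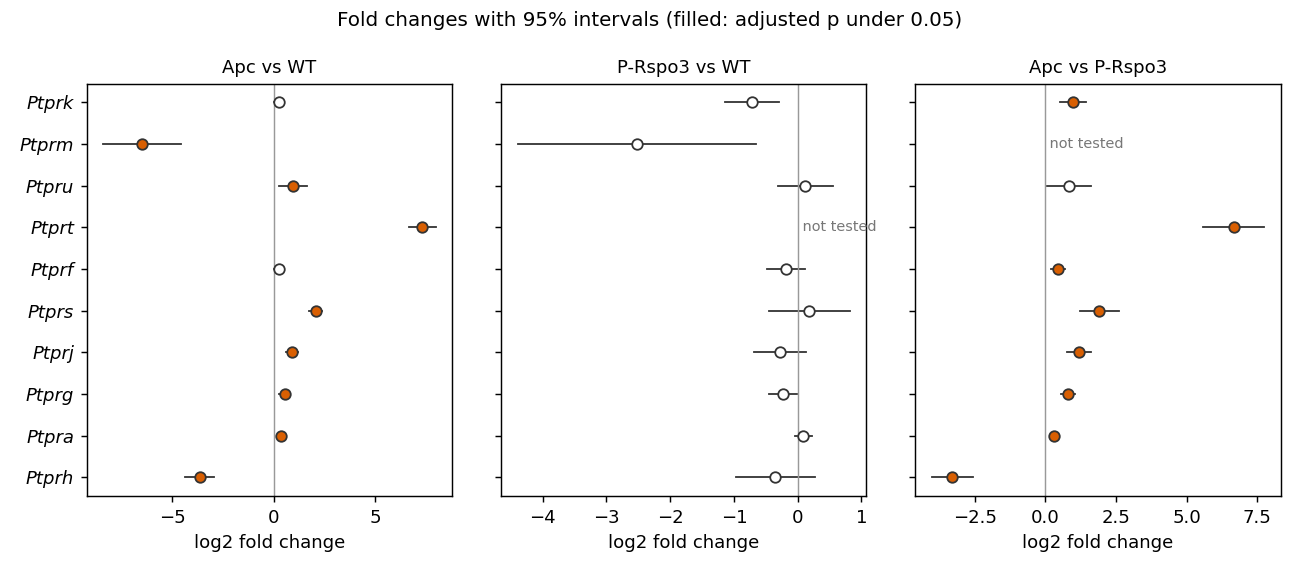
Log2 fold changes from counts with 95% intervals for the 10 genes in Apc against WT, P-Rspo3 against WT and Apc against P-Rspo3, each panel with its own linear axis. Filled points passed at an adjusted p under 0.05, which 8 of 10 did in the first panel, 0 of 9 in the second and 8 of 9 in the third.

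Of the 3 proteoglycan-binding LAR-type receptors, Ptprs and Ptprd rose and Ptprf did not pass the test. Ptprs stood at 22.7, 21.9, 19.3 and 25.8 FPKM in Apc libraries 1, 2, 5 and 6, against 3.55 to 5.68 in WT. It was 4.24-fold higher (log2FC 2.09 ± 0.14, edgeR adjusted p = 6.42e-07) and moved from a median rank of 8 in WT to 3 among the 21 receptors. Ptprf stood at 53.8 to 59.2 FPKM against 30.7 to 44.1 without overlap, but the log2FC from counts was 0.25 ± 0.10 (adjusted p = 0.0644). As CPM, Apc libraries 2 and 5 (both 446) lay inside the WT range of 304 to 450. Ptprd, which is not among the 10 genes, stood at 16.2 to 19.0 FPKM against 5.64 to 13.4 without overlap (log2FC 0.58 ± 0.17, adjusted p = 0.0137). In the same medium, P-Rspo3 had Ptprd at 7.62 to 21.4 FPKM, and Apc did not differ from it (log2FC -0.12, edgeR adjusted p = 0.713).

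Ptprj, Ptprg and Ptpra rose by less than a doubling. Ptprj, a receptor that opposes growth factor signalling, stood at 13.3, 14.3, 13.7 and 17.3 FPKM in Apc libraries 1, 2, 5 and 6, against 5.03 to 7.49 in WT (log2FC 0.90 ± 0.13, edgeR adjusted p = 1.18e-04). Ptprg was at 22.1 to 30.3 FPKM against 12.1 to 17.3 (log2FC 0.55 ± 0.12, adjusted p = 0.00226). Ptpra was at 17.6 to 17.9 FPKM against 10.2 to 12.1, with the smallest spread among Apc libraries (log2FC 0.37 ± 0.05, adjusted p = 1.23e-04). No Apc library overlapped WT for any of these 3 genes, on FPKM or as CPM. The share of all genes without overlap between Apc and WT was not computed, so this is a description only.

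Ptprh, also known as SAP-1 and found in the microvilli of intestinal epithelium, fell. It stood at 0.920, 0.910, 1.43 and 2.05 FPKM in Apc libraries 1, 2, 5 and 6, against 14.0, 15.7, 20.0, 8.34 and 11.6 in WT libraries 1, 2, 5, 6 and NAIVE. WT was 12.6-fold higher (log2FC -3.65 ± 0.33, edgeR adjusted p = 4.35e-06). Ptprh went from a median rank of 4 in WT to 12.5 in Apc. The 10 listed enterocyte genes, summed, went from 3525 to 10071 FPKM in WT to 59.9 to 87.4 in Apc, and 10 of 10 fell. Their part in the fall of Ptprh was not tested, and in bulk RNA fewer cells of a type and less RNA per cell cannot be told apart.

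The summed FPKM of the 4 MAM-domain genes was 26.6 ± 3.81 (SD, n = 4) in Apc and 15.4 ± 2.22 (n = 5) in WT, a ratio of 1.73 without overlap (exact permutation test, p = 0.0159, adjusted p = 0.0265). Over all 10 genes the sums were 166 ± 8.31 and 105 ± 10.5 FPKM, a ratio of 1.58 (exact permutation test, p = 0.0159). On normalized counts per kilobase of exon, an alternative added after the data were seen, the ratios were 1.66 and 1.17 (exact permutation tests, p = 0.0159 and 0.0635), so the rise of the sum over 10 genes depends on the FPKM scale and that of the MAM-domain genes does not.

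Against P-Rspo3, 9 members were tested in Apc and Ptprm was not. Ptprt, Ptprs and Ptprj were called higher (3 of 9, against 13.4% of 16456 genes) and Ptprh was called lower (1 of 9, against 13.3%). By adjusted p alone 7 rose (28.7% of all genes) and 1 fell (27.7%), and Ptpru did not pass (log2FC 0.84, 95% interval 0.06 to 1.62, adjusted p = 0.0639). On the log2(FPKM + 0.1) scale the split over all genes was 2608 higher and 1653 lower, against 2209 and 2183 from the counts. The log2FC of Ptprs was 1.92, of Ptprj 1.20, of Ptprg 0.79, of Ptprf 0.44 and of Ptpra 0.29. Ptprh was 9.78-fold higher in P-Rspo3. Both this comparison and that with WT use the same Apc libraries, and none of these genes passed between P-Rspo3 and WT in the edgeR fit.

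Other receptor-type phosphatases also differed between Apc and WT. Of 11, 8 were tested, 5 rose (30.0% of all genes did) and 3 fell (29.0%). Called higher were 4 (12.2% of all genes) and called lower 3 (14.1%). Those called higher were Ptpre (5.26-fold), Ptpro (5.58-fold), Ptprb (6.11-fold) and Ptprv, which had 72 counts in all in Apc and 1 in WT, a ratio of 68.8 per normalized library size (95% exact interval 12.0 to 2755). Ptprn (log2FC -4.03), Ptprr (-1.91) and Ptprn2 (-1.44) were called lower. Ptprn and Ptprn2 are proteins of dense-core secretory granules, and the 8 listed enteroendocrine genes summed to 147 to 291 FPKM in WT and 16.5 to 36.2 in Apc, with 6 of 8 lower. Ptprb is an endothelial receptor, and the 5 endothelial markers summed to 0.341 to 0.507 FPKM in WT and 2.41 to 3.54 in Apc, with Kdr at 0 in all 13 libraries. Of the 3 endothelial markers tested, 2 rose and 1 fell, and Pecam1, Kdr and Cldn5 stayed under 1 FPKM everywhere. The part of these markers in the results was not tested.

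Of the 10 partners, the cell-junction proteins and receptors on which these phosphatases are known to act, 8 rose and 1 fell in Apc against WT, where 30.0% and 29.0% of all genes did, with a median log2FC of 0.31. Znrf3, the R-spondin-sensitive ligase that removes Wnt receptors from the cell surface, was called (log2FC 1.61). The cadherin Cdh1 (0.24) and the catenins Ctnnb1 (0.29), Ctnna1 (0.15) and Ctnnd1 (0.32) passed without reaching a doubling. The polarity protein Pard3 fell (-0.66), and Jup did not pass. Of 17 non-receptor phosphatases 14 were tested, 8 rose and 3 fell, against the same shares of all genes. Ptpn13 and Ptpn14 (log2FC 5.83) were called higher and Ptpn22 (-5.48) was called lower. Ptpn13 had 1 to 2 counts in each WT library, and its ratio from 984 counts in Apc against 9 in WT was 104 per normalized library size (95% exact interval 54.8 to 229).

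The FPKM of Ptprk correlated with that of several other members across the 13 libraries, given as a description because the libraries share 3 groups. On the log2(FPKM + 1) scale the median log2FC over all tested genes in Apc against WT was 0.17. The spread of r over all genes is not given here. On the log2(FPKM + 1) scale Pearson's r with Ptprk was 0.78 for Ptprg, 0.74 for Ptprf, 0.71 for Ptprt, 0.69 for Ptprj, 0.69 for Ptprs, 0.64 for Ptpra and 0.49 for Ptpru. For Ptprm it was -0.04 and for Ptprh -0.68. Of 10961 protein-coding genes with a mean of at least 1 FPKM, the 3 most like Ptprk were L3hypdh (r = 0.92), Cpq (0.89) and Alkbh6 (0.89).

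The libraries carried the markers of small-intestinal epithelium. The 7 epithelial genes summed to 1338 to 1886 FPKM over the 13 libraries, and 7 of 7 mesenchymal genes stayed under 1 FPKM everywhere. Goblet genes summed to 1725 to 2372 FPKM in WT, 1297 to 2936 in P-Rspo3 and 136 to 426 in Apc. Paneth genes summed to 1586 to 3707, 1448 to 3126 and 497 to 1002 in the same order, with 1 of 5 higher and 4 lower in Apc than in WT. The 5 stem cell genes summed to 584 to 1327 in WT, 518 to 911 in P-Rspo3 and 408 to 538 in Apc, lower in Apc than in WT without overlap, although 4 of the 5 rose and 1 fell there. Summed tuft genes were at 3.94 to 7.34 FPKM in WT, 3.01 to 6.80 in P-Rspo3 and 2.82 to 3.77 in Apc. Immune genes summed to 2.19 to 3.77, 1.69 to 4.35 and 7.18 to 11.4, and neural genes to 0.871 to 1.43, 0.745 to 1.34 and 1.07 to 2.09, with Sox10 at 0. Of the 4 immune genes tested in Apc against WT, 2 rose and 2 fell. Of all marker lists, 0 genes passed in P-Rspo3 against WT.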

How the data were processed

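Groups came from the sample labels. Reads were mapped by the authors with STAR to the mouse build GRCm38. Their HTSeq 0.6.0 table of raw counts per gene and their Cufflinks 2.2.1 table of FPKM, scaled for transcript length and library size, were deposited and used here. Neither the annotation release nor whether counting used strand is given in the sources used here, so reads of overlapping genes cannot be told apart. Symbols came from GENCODE M21 (42548 identifiers matched).

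Counts were fitted per pair of groups with edgeR 4.0.16 (quasi-likelihood, TMM) over genes at 0.1 FPKM or more in as many libraries as the smaller group. A gene was called at an adjusted p under 0.05 and an absolute log2FC above 1. Sums of FPKM were compared with exact permutation tests (scipy). DESeq2 1.42.0, limma 3.58.1 on log2(FPKM + 1) and log2(FPKM + 0.1), other filters and scales, and leaving out each library were alternatives. The fits were tested on simulated data. The named genes were the 10 members, called genes of 2 phosphatase lists and a partner list (at most 2 each way for the non-receptor list), and the 3 genes most correlated with Ptprk. The members and lists were chosen with earlier results of these data known. The 2 libraries whose titles were read as conflicting with their genotype were left out of the groups and enter only as alternatives. Deviations from the group mean in Apc and WT libraries sharing a number correlated at 0.022 to 0.200 (median 0.093). For other pairs the median was -0.030. The main fit has no block, and a fit with the number as a block is given as an alternative. Depth limits Ptprm and Ptprt, and exact intervals of count ratios and 95% intervals of log2FC cover counting error or spread between libraries only.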

Additional observations from a re-analysis of the deposited data

Results flagged for a closer look

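In 42 sets of 4 or 5 library values, over the 10 genes, Rspo3 and the 3 sums, 8 values stood apart from the rest of their group by Dixon's criterion, where chance gives about 1 in 20 sets. WT library 6 was high for Ptprk (18.6 FPKM, others 13.1 to 14.4), for Ptprk plus Rspo3 (18.6, others 13.1 to 14.4) and for the sum of the MAM-domain genes (19.3, others 14.0 to 14.9), which are not independent because Ptprk dominates each. P-Rspo3 library M was high for Ptprm (0.138 FPKM, others 0.0043 to 0.0173). P-Rspo3 library 15d was high for Ptpra (13.4, others 11.3 to 11.6). P-Rspo3 library F was high for Ptprh (16.0, others 9.18 to 9.28) and low for Ptprk plus Rspo3 (16.7, others 19.4 to 19.6). The Rspo3 value of WT library 1 (0.0112 FPKM) is a single read, with 0 in the other WT libraries.

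One library outside the groups, titled NAIVE_F but with the genotype and EN medium of P-Rspo3, held Rspo3 at 8.54 FPKM, far above the WT libraries.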

How the results depend on the processing

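Over the 10 genes and 3 comparisons, 479 of 500 alternative fold changes kept their direction and their side of an adjusted p of 0.05, and the cause of the other changes was not tested. In Apc against WT the members called higher numbered 4 by limma on log2(FPKM + 0.1) and 6 by adjusted p alone, in place of 2, and those called lower 1 by limma on log2(FPKM + 1), in place of 2. In Apc against P-Rspo3, those called higher numbered 5 by limma on either scale and 7 by adjusted p alone, in place of 3. Those called lower were 2, in place of 1, with no FPKM filter or all 3 groups in 1 fit, where Ptprm was tested too. The log2FC of Ptprk in Apc against WT passed by limma (0.51 and 0.53 with pseudocounts 1 and 0.1), and in P-Rspo3 it passed by DESeq2 (-0.72), which also called 1 member, Ptprm, lower. Against NAIVE alone (added after the data were seen), log2FC of Ptprm (0.29), Ptprf (0.14) and Ptprg (0.10) had the opposite sign, with 1 WT library behind each.

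Ptprk plus Rspo3 turned to -17.4 when taken as normalized counts without length, since Ptprk is the longer RNA. The MAM-domain sum fell by 9.58 in P-Rspo3 on the rescaled scale, past no threshold, and the 10-gene sum rose by 15.8 per kilobase in Apc.

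With 1 library fewer at a time, Ptprk plus Rspo3 differed by 3.77 to 5.15 FPKM. Members called lower in Apc against WT numbered 1 to 2, with Ptprm untested without WT library 1, 2, 5 or 6, and those called higher in Apc against P-Rspo3 numbered 3 to 5, the most without Apc library 1. Log2FC ranged from 0.17 to 0.32 for Ptprk in Apc against WT. In P-Rspo3 it ranged from -4.27 to -2.16 for Ptprm, from -0.0014 to 0.20 for Ptpru and from -0.21 to 0.37 for Ptprs.

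With the shared library number as a block in Apc against WT, 1979 genes were called higher and 2240 lower, in place of 2048 and 2364. Ptpru no longer passed (log2FC 0.83, edgeR adjusted p = 0.0753), and the other members kept their side.

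Over all genes in P-Rspo3 against WT, 11 were called higher and 63 lower with all 3 groups in 1 fit, 166 and 100 without NAIVE, 2 and 11 with no filter, 2 and 4 by the newer edgeR form, and 3 and 4 by limma on log2(FPKM + 1). Without WT library 1 they were 1 and 9, and without P-Rspo3 library M 3 and 7. LIPO and NAIVE_F were left out of the groups, and their planned placings serve only as alternatives. With LIPO as WT and NAIVE_F as P-Rspo3, as in the genotype field, 1 gene was called higher and 0 lower. With the groups swapped against that field 0 were called, and Rspo3 no longer passed (log2FC 2.37, edgeR adjusted p = 0.671), NAIVE_F having 729 Rspo3 counts. Neither placing called a member. Counts limit Ptprm, and Ptprt outside Apc.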

Other observations

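In no group were 2 libraries whose titles were read as conflicting with their genotype. By the genotype field LIPO is WT and NAIVE_F is P-Rspo3, and their Rspo3 counts of 0 and 729 go with that field. LIPO, labelled dox-naive and grown in ENR, had Ptprk at 13.8 FPKM, Rspo3 at 0 counts, Ptprm at 39 counts and Ptprt at 7 counts. NAIVE_F had Ptprk at 10.3 FPKM, Rspo3 at 8.54 FPKM with 729 counts, Ptprm at 78 counts and Ptprt at 3 counts. Ptprk plus Rspo3 came to 18.9 FPKM in NAIVE_F and 13.8 in LIPO. The Ptprm count of NAIVE_F lay within the 56 to 87 of the Apc flox/flox WT libraries and above the 33 of the highest P-Rspo3 library.

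Rspo3 was also detected in Apc organoids, which carry no engineered inversion, with 45, 57, 7 and 23 counts (0.460, 0.668, 0.0760 and 0.229 FPKM) in libraries 1, 2, 5 and 6. It was under the expression filter of the comparison with WT, where it had 0 to 1 count, and the ratio of 132 counts in Apc to 1 in WT was 126 per normalized library size (95% exact interval 22.2 to 5019, for counting error only). Rspo2 had 0 counts in every library but WT library 5, which had 1.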
